A study of Mus musculus with 24 samples.

Results

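The comparison is between cardiac fibroblasts taken 8 weeks after transverse aortic constriction (TAC) and those taken 1 week after it, measured by their circular RNAs. Its members are 7 of the study's 24 libraries, 3 at 8 weeks and 4 at 1 week, which were chosen by the operation and the time in the sample labels. Every one of the 1717 circular RNAs in the authors' table was compared in them. All mice were male C57BL/6J animals of one wild-type strain, operated on at 8 weeks of age. In TAC a silk ligature was tied round the aortic arch against a needle, and the narrowed vessel makes the left ventricle pump against a raised pressure. The 4 sham libraries at 8 weeks and the 4 sham libraries at 1 week came from mice that had the same surgery without the ligature, and serve here to show what differed between the times in the absence of constriction. Fibroblasts were isolated from the hearts on a Langendorff perfusion system, total RNA was depleted of ribosomal RNA, and stranded libraries were sequenced. No sort on a surface marker and no pooling of hearts is stated in the sources used here, and it is not stated whether each library is a separate animal. The p-values here therefore cover only the spread between the libraries. Mice at 8 weeks were also older than those at 1 week, and time after TAC, age and any batch that goes with the time cannot be told apart within the TAC libraries.

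A circular RNA forms when the splicing machinery joins the end of an exon to the start of the same or an upstream exon, so that the exons close into a ring with no free ends. Rings resist exonucleases and can outlast the linear transcripts of their host gene, and some are known to bind microRNAs or RNA-binding proteins. Pressure overload activates cardiac fibroblasts early, with proliferation and a turn towards contractile, matrix-secreting myofibroblasts, and scar-like fibrosis builds up as the load persists. A circular RNA is counted by the reads that cross its back-splice junction, and those reads are few. The 3 TAC libraries at 8 weeks held 4685, 5678 and 6731 junction reads and the 4 at 1 week held 3595, 5977, 5446 and 5811, within a range of 3595 to 9146 over all 24 libraries. The mean difference was 491 reads (exact permutation test, two-sided, p = 0.686; 3 against 4 libraries cannot give a p below 0.0571), and its sign turned without TAC replicate 3 at 8 weeks or without TAC replicate 1 at 1 week. Values below are normalized reads, the authors' library-scaled junction reads. When each library was reduced to the depth of the smallest, the libraries held a mean of 1171 circular RNAs with a read at 8 weeks and 1180 at 1 week. The difference was -8.50 (exact permutation test, two-sided, p = 0.571), so the number of circular RNAs read, among those the authors listed, did not separate the times. Rings that the authors' list leaves out could not be counted, so the number of all kinds of circular RNA was not tested.

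No circular RNA passed the test between TAC at 8 weeks and TAC at 1 week. With limma on log2(normalized reads + 0.5) and Benjamini-Hochberg adjustment over all 1717, 0% were called at an adjusted p of 0.05, and the smallest adjusted p was 0.273, shared by 5 circular RNAs. At an unadjusted p under 0.05 there were 129 (7.51% of those tested), of which 78 were higher at 8 weeks (4.54%) and 51 lower (2.97%). By limma-voom, which weights the recovered reads by their precision, 1 circular RNA was called, a ring of Ezh2, with a log2 fold change of -1.55 and an adjusted p of 0.0428. The median log2 fold change over all 1717 was 0.04, and 888 of the values were above 0. The 10 circular RNAs most abundant over the 7 libraries took 8.19% ± 0.14 of the normalized reads at 8 weeks (SD, n = 3) and 8.34% ± 0.41 at 1 week (n = 4), and the 100 most abundant took 31.7% ± 0.35 and 31.6% ± 1.2 in the same order.

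How large a change could have been missed follows from the abundance. For the 928 circular RNAs with a mean under 2 normalized reads over the 7 TAC libraries, the 95% confidence interval of the log2 fold change reached a median of 1.71 to either side of the estimate. For the 66 with a mean from 10 to under 20 it reached 0.97, and 5 of these 66 had intervals wholly within a log2 fold change of 1 on either side of 0. For the 26 with a mean of 20 or more it reached 0.72, and 14 of these 26 had intervals that lay wholly within the same limits. No interval of the 1625 circular RNAs with a mean under 10 did so. A change of 1 log2 unit in a scarce ring could therefore have gone undetected at this depth. For the 14 and the 5 more abundant rings above it lay outside the interval.

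**Figure D1:**
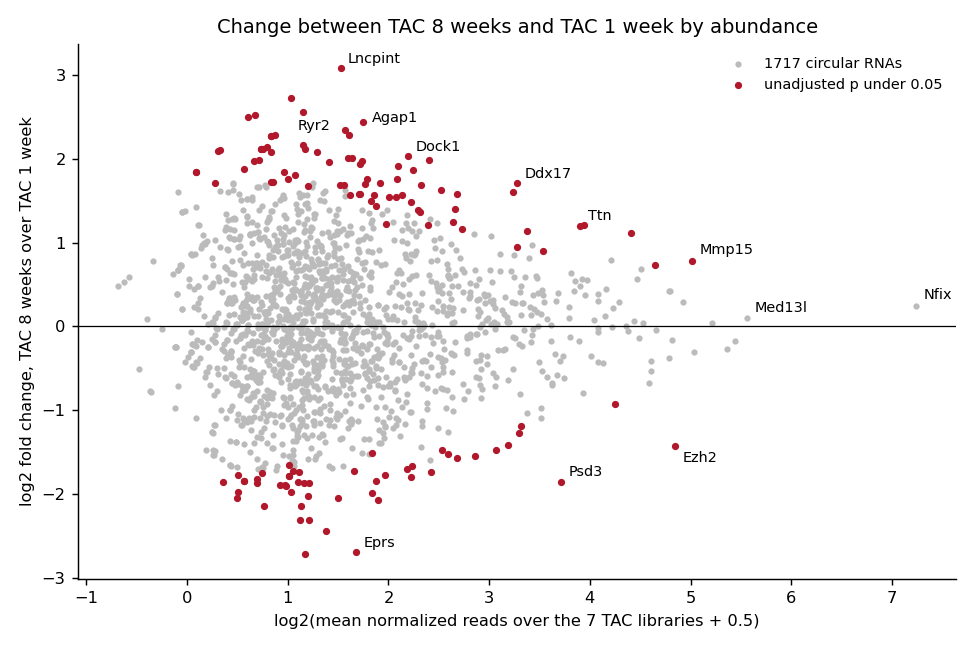
Log2 fold change of TAC at 8 weeks over TAC at 1 week (vertical axis) against the log2 mean normalized reads over the 7 TAC libraries (horizontal axis) for 1717 circular RNAs, with the 129 at an unadjusted p under 0.05 in red and 12 hosts named. The spread of the values narrows to the right, and none of the red points passed the adjusted threshold.

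The genes described next are the 24 circular RNAs with the smallest unadjusted p, none of which passed after adjustment, so their values are given as measurements and not as changes. The mean was higher at 8 weeks for 18 of the 24 and lower for 6. In 21 the libraries of the times did not overlap, 16 higher and 5 lower. The 24 were chosen by a small p in these same values, which favours such separation, so this is a description. Over all 1717, 5.59% were higher and 3.09% lower without overlap. Means of the 24 ran from 1.02 to 28.3 normalized reads over the 7 libraries, and 10 of them had means under 5 at both times. Of all 1717, 928 had a mean under 2. The 24 rings came from 24 different host genes. Of these rings 19 lay in coding exons alone. Their median was 4 exons and 363 bases of spliced length, against 3 exons and 420 bases over all circular RNAs of the table.

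The identity of each ring is its junction. For 8 of the rings below the 40 bases across it are printed, 5′ to 3′ on the transcript strand, from the GENCODE transcripts of mm10. Lower case is the end of the last exon in the ring and capitals are the start of the first exon, so that the border between the cases is the back-splice. The first 6 are from the 24 and the last 2 are the rings called between the sham groups.
Ryr2 exons 59 to 62: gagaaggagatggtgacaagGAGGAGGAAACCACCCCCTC
Ttn exons 85 to 118: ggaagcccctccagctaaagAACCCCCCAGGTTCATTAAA
Dock1 exons 26 to 27: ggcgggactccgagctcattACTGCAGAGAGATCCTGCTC
Ddx17 exons 9 to 10: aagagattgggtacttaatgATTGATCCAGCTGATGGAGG
Psd3 exons 2 to 5: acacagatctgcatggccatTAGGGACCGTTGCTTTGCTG
Eprs exons 11 to 15: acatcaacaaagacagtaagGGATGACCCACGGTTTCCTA
Ash1l exons 4 to 5: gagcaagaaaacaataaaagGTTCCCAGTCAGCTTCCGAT
Strn3 exons 2 to 7: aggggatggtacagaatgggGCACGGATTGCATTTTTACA

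Rings of genes of heart muscle and the contractile apparatus were among those with higher means at 8 weeks. The ring of Ryr2, the calcium release channel of the sarcoplasmic reticulum (chromosome 13, 11680966 to 11688013, mm10), had 2.39, 5.11 and 6.86 normalized reads in the TAC libraries at 8 weeks, against 0, 1.92, 0 and 0.973 at 1 week (log2 fold change 2.34 ± 0.71 (SE), adjusted p = 0.278). Every 8-week library lay above every 1-week library. The main ring of Ttn, the giant spring protein of the sarcomere (chromosome 2, 76857904 to 76881839, mm10), had 23.9, 23.5 and 17.1 at 8 weeks and 12.3, 6.71, 9.98 and 7.78 at 1 week (log2 fold change 1.20 ± 0.39 (SE), adjusted p = 0.333), again without overlap. Myocd encodes myocardin, a coactivator of serum response factor in cardiac and smooth muscle. The ring of its exons 2 to 5 (chromosome 11, 65218529 to 65233184, mm10) had 7.18, 8.17 and 7.71 at 8 weeks and 1.54, 1.92, 6.99 and 0 at 1 week (log2 fold change 1.98 ± 0.69 (SE), adjusted p = 0.419), so that the highest 1-week library came close to the 8-week ones. The ring of Ablim3, an actin-binding LIM protein, averaged 6.1 ± 2.9 at 8 weeks and 1.97 ± 1.79 at 1 week (SD, n = 3 and 4).

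Adhesion, small GTPase and signalling hosts followed. Dock1 encodes an exchange factor that activates Rac in cell spreading and migration. Its ring of exons 26 to 27 (chromosome 7, 134874058 to 134876315, mm10) had 4.79, 4.09 and 12.9 normalized reads at 8 weeks and 0, 3.83, 0.998 and 1.95 at 1 week (log2 fold change 2.03 ± 0.62 (SE), adjusted p = 0.278). Agap1 encodes a GTPase-activating protein for ARF proteins. Its ring of exons 4 to 6 (chromosome 1, 89627761 to 89634294, mm10) had 4.79, 5.11 and 6 at 8 weeks and 3.08, 0.959, 0 and 0 at 1 week (log2 fold change 2.43 ± 0.72 (SE), adjusted p = 0.273). In both rings all 3 libraries at 8 weeks stood above all 4 at 1 week. Psd3, an exchange factor for ARF proteins, had lower values at 8 weeks. Its ring of exons 2 to 5 (chromosome 8, 67904117 to 67908889, mm10) had 9.58, 1.02 and 6.86 at 8 weeks and 12.3, 12.5, 22 and 24.3 at 1 week (log2 fold change -1.85 ± 0.53 (SE), adjusted p = 0.273), with TAC replicate 2 at 8 weeks lowest and no overlap. The ring of Unc13b, which primes secretory vesicles, averaged 8.49 ± 2.3 at 8 weeks and 2.81 ± 2.14 at 1 week (SD, n = 3 and 4). Bbs9 encodes a subunit of the BBSome, which carries proteins to the primary cilium. Its ring of exons 4 to 5 (chromosome 9, 22887581 to 22887996, mm10) matched a noncoding transcript of the gene and was among the more abundant of the 24. It had 23.9, 35.8 and 30.9 at 8 weeks and 12.3, 13.4, 13 and 15.6 at 1 week (log2 fold change 1.11 ± 0.37 (SE), adjusted p = 0.383). The 1-week libraries lay close together and below all 8-week libraries.

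Regulators of chromatin and RNA appeared on both sides. Ezh2 encodes the catalytic subunit of Polycomb repressive complex 2, which methylates histone H3. The ring of its exons 2 to 3 (chromosome 6, 47576536 to 47577667, mm10) had the highest level of the 24 rings at 1 week. It had 21.5, 7.15 and 15.4 normalized reads at 8 weeks, against 23.1, 43.1, 34.9 and 52.5 at 1 week (log2 fold change -1.42 ± 0.42 (SE), adjusted p = 0.273). All 8-week libraries lay below all 1-week libraries, although the highest of the first was close to the lowest of the second. Ddx17, a DEAD-box RNA helicase that takes part in splicing, had 14.4, 16.3 and 14.6 in its ring of exons 9 to 10 (chromosome 15, 79536997 to 79537545, mm10) at 8 weeks, and 1.54, 5.75, 6.99 and 4.86 at 1 week (log2 fold change 1.71 ± 0.54 (SE), adjusted p = 0.331). The groups stood well apart. Atxn1, an RNA-binding nuclear protein, had 16.8, 21.5 and 24 at 8 weeks and 9.23, 21.1, 8.98 and 2.92 at 1 week in its ring of exons 2 to 3 (log2 fold change 1.21 ± 0.40 (SE), adjusted p = 0.333); one 1-week library reached the 8-week range. The junction of Lncpint, a long noncoding RNA gene induced by p53, (chromosome 6, 31166476 to 31181149, mm10) has only 1 end at an annotated exon end. It had 7.18, 5.11 and 3.43 at 8 weeks and 0, 0.959, 0 and 0 at 1 week (log2 fold change 3.08 ± 0.82 (SE), adjusted p = 0.273), the smallest unadjusted p of the comparison.

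Hosts of metabolism and protein handling were also among the 24. Eprs encodes the glutamyl-prolyl-tRNA synthetase. The circle of exons 11 to 15 (chromosome 1, 185386246 to 185397267, mm10) had 0, 0 and 0.857 normalized reads at 8 weeks and 1.54, 5.75, 3.99 and 6.81 at 1 week (log2 fold change -2.70 ± 0.79 (SE), adjusted p = 0.273). Xdh, the xanthine dehydrogenase of purine breakdown, had 13.2, 15.3 and 12 at 8 weeks and 1.54, 13.4, 3.99 and 2.92 at 1 week (log2 fold change 1.61 ± 0.55 (SE), adjusted p = 0.383), with one 1-week library inside the 8-week range. For Mipep, a mitochondrial peptidase, the means were 4.78 ± 1.35 at 8 weeks and 0.871 ± 1.02 at 1 week (SD, n = 3 and 4). The means of S100pbp were 0.286 ± 0.495 and 3.46 ± 1.26. The means of Tacc2, a centrosomal coiled-coil protein, were 3.7 ± 2.11 and 0.25 ± 0.499, and those of the anion transporter family gene Slc26a10 were 5.02 ± 1.69 and 1.11 ± 0.832, in the same order. These rings had few reads, and adjusted p over the 24 ran up to 0.521.

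**Figure D2:**
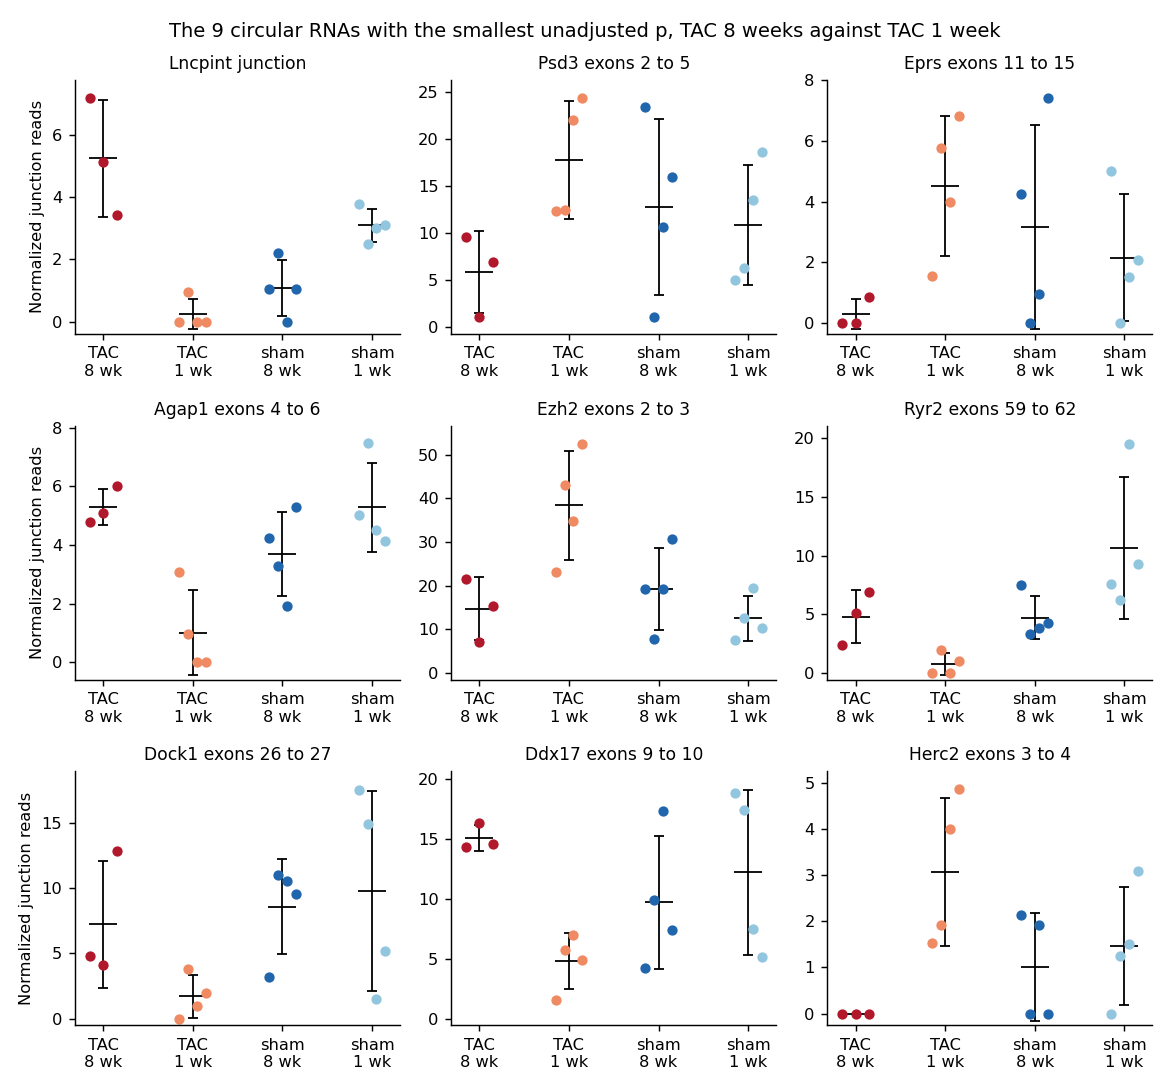
Normalized junction reads of each library (points) with the group mean and SD (bars) for the 9 circular RNAs with the smallest unadjusted p, in the TAC groups at 8 weeks and 1 week and the sham groups at the same times. In each panel the TAC libraries at 8 weeks lie wholly above or below those at 1 week, and the sham groups overlap except for Lncpint. The 9 were chosen by their TAC values, which favours separation in TAC and not in sham, so the panels are a description.

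Some rings were read at only one of the times. Of the 1717, 550 had a read in all 7 TAC libraries, 20 had reads at 8 weeks and none at 1 week, and 35 had reads at 1 week and none at 8 weeks. With 3 libraries at 8 weeks and 4 at 1 week, a scarce ring is more easily missed at 8 weeks. These counts were not set to equal depth, so they do not show a loss of rings. Present in all 3 libraries at 8 weeks and in none of the 4 at 1 week were 8 rings, of Birc2, Sema3c, Mindy3, Dock4, Sptlc2, Acap2, Tmtc1 and Gtf3c6. Birc2 encodes an inhibitor of apoptosis. Its ring of exons 3 to 4 (chromosome 9, 7825615 to 7827009, mm10) had 7.18, 1.02 and 2.57 normalized reads at 8 weeks. Their mean was 4.46 times the floor of 3 reads over the 1-week group. The ring of Sema3c, a secreted semaphorin, had 1.2, 3.06 and 3.43, with a mean 3.18 times the same floor. That of the deubiquitinase Mindy3 had 2.39, 3.06 and 1.71, with a mean 2.97 times that floor. These floors cover counting error in the group at 0 only, and the spread of the other group does not enter the ratios. The lower 95% ends of the log2 fold changes by limma were 1.01 for Birc2, 0.83 for Sema3c and 0.81 for Mindy3. In the reverse pattern, 5 rings were read in all 4 libraries at 1 week and in none of the 3 at 8 weeks, those of Herc2, Osbpl11, Kdm4b, Lyn and a junction at Ncapd2 that has more than one candidate host. Herc2, a HECT-type ubiquitin ligase, was at 0 in all 8-week libraries in its ring of exons 3 to 4 (chromosome 7, 56067984 to 56072430, mm10). It had 1.54, 1.92, 3.99 and 4.86 at 1 week, with a mean 3.06 times the floor of 3 reads over the 8-week group. A ring of Phkb, the beta subunit of phosphorylase kinase, was also at 0 in all 8-week libraries. The Phkb ring had 0, 2.88, 2.99 and 5.84 at 1 week, with a mean 2.91 times that floor. The sham groups at 8 weeks and at 1 week each held reads for all 8 and all 5 of these rings.

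Several hosts gave more than one ring, and 17 of the 24 hosts were among them. All 3 rings of Ezh2 had lower means at 8 weeks; summed they reached 19.8 ± 6.53 normalized reads at 8 weeks and 48.5 ± 16 at 1 week (SD, n = 3 and 4). The second Ezh2 ring of exons 2 to 3, which uses another end of exon 3, had 4.67 ± 1.31 at 8 weeks and 8.85 ± 2.19 at 1 week, also without overlap. The 4 rings of Agap1 all had higher means at 8 weeks, with a sum of 18.3 ± 2.03 at 8 weeks and 8.8 ± 4.09 at 1 week. So did the 3 rings of Ryr2, with 7.35 ± 3.42 and 1.92 ± 3.23 in the same order. Of the other rings of Ttn, that of exons 84 to 118 had 5.35 ± 2.47 at 8 weeks and 1.99 ± 0.865 at 1 week and that of exons 104 to 110 had 1.43 ± 2.47 and 0.982 ± 0.815, with reads in only 1 library at 8 weeks. Other hosts differed from ring to ring. The Phkb ring of exons 3 to 5 had 9.21 ± 7.11 at 8 weeks and 6.81 ± 1.95 at 1 week, while the ring of exons 3 to 8, which shares its first exon, had no read at 8 weeks. The Unc13b ring of exons 2 to 7 averaged 8.94 ± 5.75 and 8.2 ± 5, unlike the ring of exons 2 to 6 described above. Linear transcripts of these hosts were not analysed here.

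Host gene lists showed where groups of rings lay, without any member passing the adjusted threshold. Members are counted by the sign of the log2 fold change, which for a few scarce rings differs from that of the difference in means. Over all 1717, 888 were positive, 4.54% were higher and 2.97% lower at an unadjusted p under 0.05. Of 19 rings of cardiomyocyte genes, 14 were positive and 5 negative, with a median log2 fold change of 0.90 against 0.04 over all (0.86 with rings absent from a group set to their floor); 5 were higher and 1 lower at an unadjusted p under 0.05. Their summed normalized reads were 69.4, 82.8 and 61.7 at 8 weeks and 47.7, 32.6, 46.9 and 39.9 at 1 week, so that the groups did not overlap. Without the 3 Ttn rings the sums were 41.9, 51.1 and 36 at 8 weeks and 32.3, 24, 32.9 and 29.2 at 1 week, still apart. The ring of Dmd, which encodes dystrophin, was at 0 in all libraries at 8 weeks and averaged 1.96 ± 1.79 at 1 week (SD, n = 4). In sham libraries the list summed to 79.9 to 142 at 8 weeks and 48.6 to 161 at 1 week, and without Ttn to 41.4 to 52 and 31 to 75.1, which overlapped the TAC libraries at 8 weeks. In bulk libraries fewer cells of a type and less RNA per cell cannot be told apart, and this holds for every list.

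Cell cycle hosts were mostly negative. Of 6 rings, from Bub1b, Cdkn3, Knl1 and Pola1, 5 had a negative log2 fold change, with a median log2 fold change of -0.71. At an unadjusted p under 0.05, 1 was lower (16.7% of the list, against 2.97% over all 1717). Summed normalized reads were 18, 11.2 and 18.9 at 8 weeks and 43.1, 31.6, 26 and 24.3 at 1 week, without overlap. Most of that came from Bub1b, a kinase of the spindle checkpoint, whose ring of exons 17 to 19 had 9.58, 8.17 and 10.3 at 8 weeks and 35.4, 19.2, 9.98 and 10.7 at 1 week. The highest value was that of TAC replicate 1 at 1 week, and the lowest 1-week library lay inside the range of the 8-week ones, so this ring alone did not separate the times (log2 fold change -0.79 ± 0.58 (SE), adjusted p = 0.768). The ring of Cdkn3, a cyclin-dependent kinase inhibitor and phosphatase, had 0, 1.02 and 1.71 at 8 weeks and 1.54, 4.79, 2.99 and 4.86 at 1 week. In sham libraries the list summed to 5.5 to 14.8 at 8 weeks and 5.17 to 12.6 at 1 week, below every TAC library at 1 week.

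Lists closer to fibrosis also held no ring that passed. Over all 1717, 4.54% were higher and 2.97% lower at an unadjusted p under 0.05. Extracellular matrix hosts had 10 of 15 rings with a positive log2 fold change and a median of 0.29. At that level 1 ring was higher (6.67% of the list), that of the membrane metalloproteinase gene Mmp15. Myofibroblast and adhesion hosts had 20 of 29 positive, a median of 0.36, and 4 higher and 1 lower at that level (13.8% and 3.45%). Tns3, a focal adhesion protein, was the lower one, with 9.58, 13.3 and 12.9 normalized reads at 8 weeks and 30.8, 25.9, 22 and 15.6 at 1 week. TGF-beta, BMP and SMAD hosts had 10 of 16 positive and none at that level. Their most abundant ring, of the BMP-responsive transcription factor Smad1, had 9.58, 10.2 and 12 at 8 weeks and 3.08, 6.71, 8.98 and 15.6 at 1 week, with overlap. Wnt and Hippo hosts had 11 of 21 positive and none at that level. Receptor tyrosine kinase and MAPK hosts leaned lower, with 24 of 35 negative, a median of -0.36 and 2 lower at an unadjusted p under 0.05 (5.71%). Of these, the ring of the growth factor receptor gene Fgfr1 had 0, 2.04 and 1.71 at 8 weeks and 3.08, 8.63, 4.99 and 0.973 at 1 week, and that of the lipid kinase gene Pik3c2a had 2.39, 0 and 0.857 and 4.61, 4.79, 3.99 and 5.84 in the same order. The Pik3c2a libraries did not overlap and those of Fgfr1 did.

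Regulators of gene expression made up the larger lists. Chromatin and transcription hosts had 40 of 87 rings positive and 47 negative, a median of -0.09 (-0.04 with rings absent from a group at their floor), and 2 higher and 3 lower at an unadjusted p under 0.05. These were 2.3% and 3.45% of the list, against 4.54% and 2.97% over all 1717. Summed normalized reads of the list were 385, 341 and 369 at 8 weeks and 389, 399.7, 417 and 439 at 1 week, which did not overlap but lay close. The lower 3 were rings of the histone methyltransferase genes Ezh2, Ash1l and Nsd2, and the higher 2 were rings of Med13l and of Ehmt1, also a histone methyltransferase gene; they are named after their values were seen. Ash1l exons 8 to 10 averaged 0.286 ± 0.495 at 8 weeks and 2.23 ± 0.96 at 1 week, Nsd2 exons 3 to 4 4.45 ± 3.14 and 11.7 ± 6.53, and Ehmt1 exons 16 to 18 15.2 ± 1.99 and 8.05 ± 2.15, in the same order (SD, n = 3 and 4). RNA-binding and splicing hosts had 25 positive and 24 negative rings, with 4 higher at an unadjusted p under 0.05 (8.16% of the list). Of the 49, the ring of Gigyf2, which represses translation and is not one of these 4, had 28.7, 11.2 and 14.6 at 8 weeks and 24.6, 28.8, 22 and 35 at 1 week, with overlap. Ubiquitin and protein turnover hosts had 14 of 32 positive, with 1 ring higher and 1 lower at that level (3.125% each). Hosts of widely reported circular RNAs had 60 of 117 positive and a median of 0.05. Of these rings 8 were higher and 4 lower at that level (6.84% and 3.42%, near the 4.54% and 2.97% over all 1717).

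**Figure D3:**
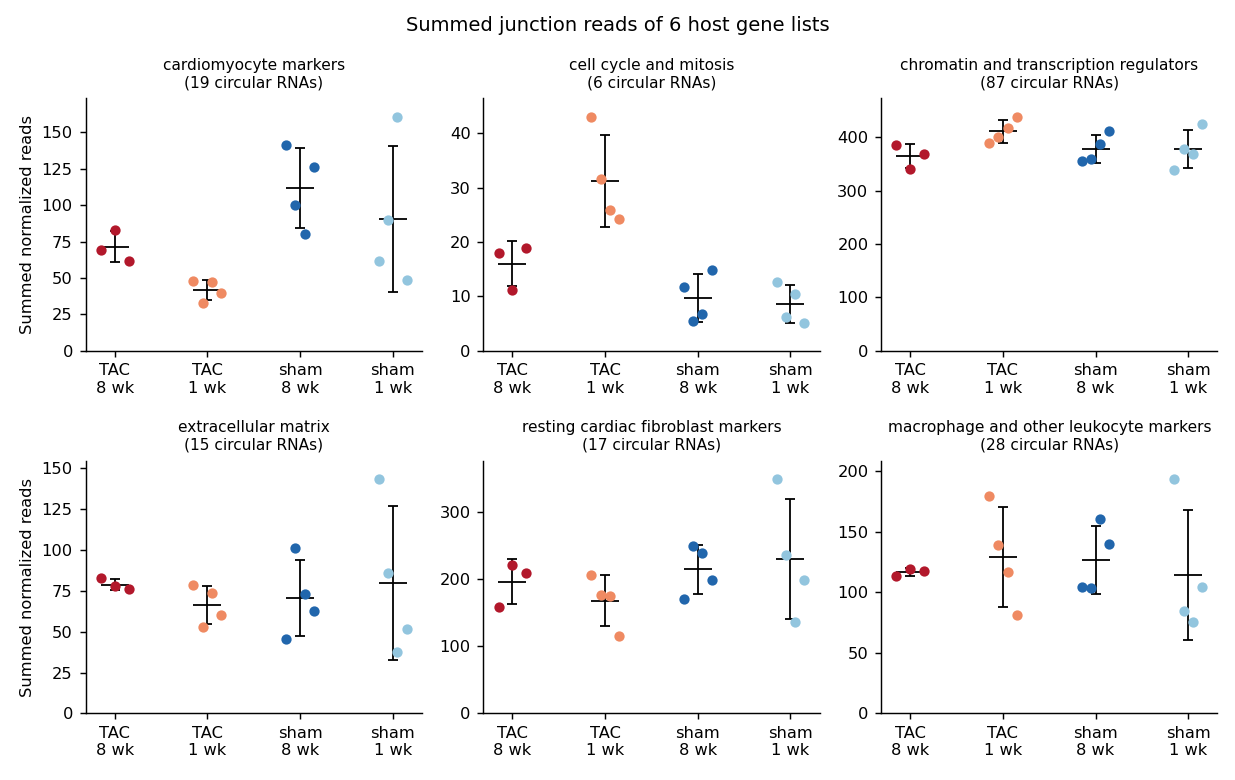
Summed normalized junction reads per library (points), with group means and SD (bars), of 6 host gene lists in TAC and sham libraries at 8 weeks and 1 week. The TAC groups stand apart for cardiomyocyte, cell cycle and chromatin hosts and overlap for the matrix, resting fibroblast and leukocyte hosts.

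Cell identity could be checked only in part, because few defining genes give rings. Of 13 fibroblast markers only Dcn, which encodes the matrix proteoglycan decorin, had a circular RNA, with 1.02 to 1.71 normalized reads over the TAC libraries at 8 weeks and 0 to 2 at 1 week, and Pdgfra, Tcf21, Col1a1 and Postn had none. Of 18 cardiomyocyte markers 8 had rings, summing to 44.6 to 53.1 at 8 weeks and 25.9 to 33.8 at 1 week; Myh6, Tnnt2 and Actn2 had none. Of 10 endothelial markers 3 had rings, with sums of 13.3 to 16.8 at 8 weeks and 8.98 to 11.5 at 1 week, also without overlap. Of 12 myeloid markers 3 had rings, with 57.5 to 82.3 at 8 weeks and 46.7 to 118 at 1 week, and of 12 markers of cycling cells 2 had, with 10.2 to 16.3 and 21 to 43.1. One mural marker, Abcc9, had 1.2 to 3.06 and 0.973 to 4.61, and one lymphoid marker, Ikzf1, 6.86 to 9.58 and 4.61 to 9.59. In the wider lists, resting fibroblast hosts had 12 of 17 rings with a positive log2 fold change (median 0.31), endothelial hosts 6 of 11 (median 0.71) and leukocyte hosts 14 of 28 (median 0.01), and of all these rings 1 was at an unadjusted p under 0.05. The wider endothelial list summed to 25.7 to 35.9 at 8 weeks and 16 to 36 at 1 week, with overlap. The ring at that level was that of Runx1, a transcription factor of blood cells on the leukocyte list, with 1.2, 0 and 0 normalized reads at 8 weeks and 4.61, 2.88, 0.998 and 2.92 at 1 week. The sums of the 8 cardiomyocyte and 3 endothelial markers were higher at 8 weeks, as were 18 of the 24 rings described first, and their part in those values was not tested.

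The rings with the most reads bounded the changes most closely. Nfix exon 2, from a nuclear factor I transcription factor gene (chromosome 8, 84771784 to 84772315, mm10), had 129, 192 and 171 normalized reads at 8 weeks and 179.9, 144, 142 and 95.3 at 1 week (log2 fold change 0.24 ± 0.17 (SE), adjusted p = 0.741; 95% interval -0.08 to 0.57). Med13l exon 2, from a gene of the Mediator kinase module, had 39.5, 43.9 and 64.3 at 8 weeks and 52.3, 43.1, 46.9 and 37.9 at 1 week (interval -0.40 to 0.60). In both rings the libraries of the times overlapped in part. The ring of Nfkb1, a subunit of the inflammatory transcription factor NF-kappa B, had an interval of -0.84 to 0.49. Intervals of Elf2, Lrch3, Rnf169 and Adgre1 also held 0, with log2 fold changes of 0.29, -0.27, 0.04 and -0.30. Adgre1 encodes the macrophage surface protein F4/80, and its ring had 19.2, 29.6 and 34.3 at 8 weeks and 49.2, 35.5, 39.9 and 17.5 at 1 week. Mmp15 alone of these 8 was apart, with 33.5, 43.9 and 46.3 at 8 weeks and 32.3, 22, 14 and 31.1 at 1 week (log2 fold change 0.78 ± 0.32 (SE), adjusted p = 0.521), the lowest of the first just above the highest of the second.

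TAC libraries at 4 weeks were set beside these values, with the caution that the comparisons share libraries. By the same test 0% of circular RNAs were called for 4 weeks against 1 week, with 88 at an unadjusted p under 0.05 (5.13%), and 0% for 8 weeks against 4 weeks, with 71 (4.14%). The Ezh2 ring had 38.4 ± 12.5 normalized reads at 1 week, 19.6 ± 3.99 at 4 weeks and 14.7 ± 7.22 at 8 weeks (SD, n = 4, 4 and 3), with 4 weeks close to 8 weeks. For Bbs9 the means were 13.6 ± 1.41, 23.2 ± 2.08 and 30.2 ± 5.94, in the same order of times. Those of Ryr2 were 0.722 ± 0.919, 2.49 ± 1.55 and 4.79 ± 2.25. Ddx17 and Ttn were at 4 weeks near their 1-week level. Ddx17 had 4.79 ± 2.33, 5.87 ± 1.6 and 15.1 ± 1.09, and Ttn had 9.19 ± 2.48, 11.1 ± 4.53 and 21.5 ± 3.8. The cell cycle list summed to 31.2 ± 8.48 at 1 week, 8.53 ± 4.36 at 4 weeks and 16 ± 4.16 at 8 weeks, so that its 4-week level was the lowest of the 3.

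**Figure D4:**
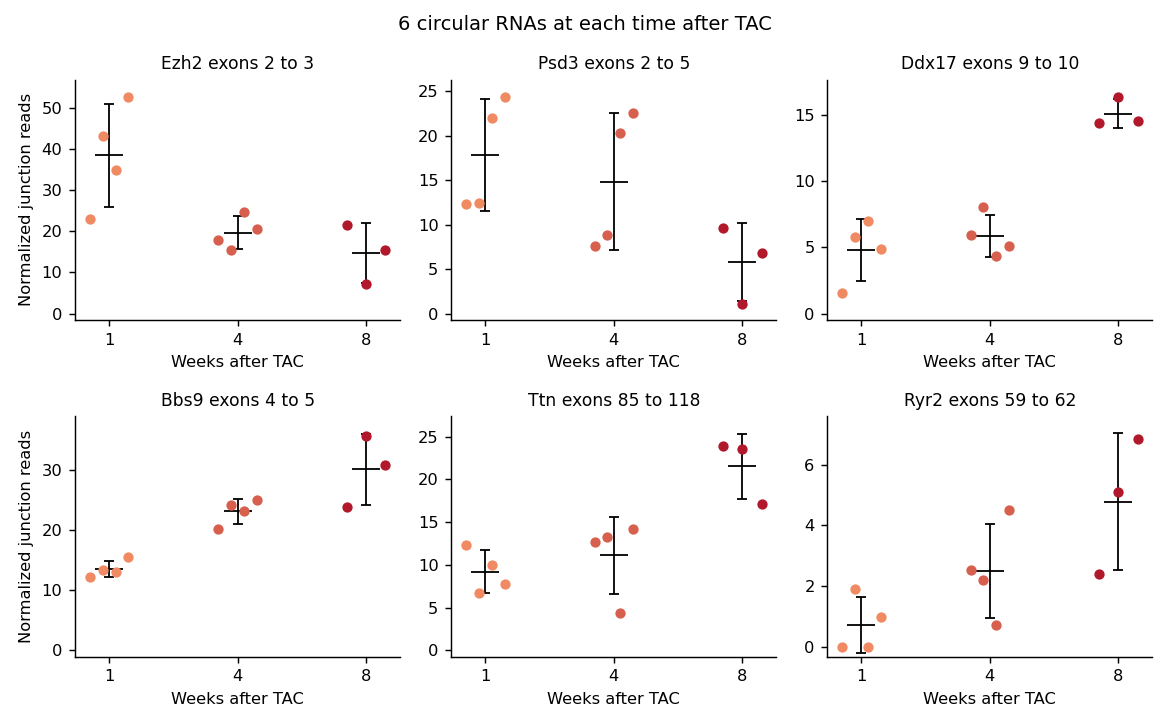
Normalized junction reads of 6 circular RNAs in each TAC library (points) at 1, 4 and 8 weeks after the operation, with group means and SD (bars). Ezh2 libraries at 4 weeks lie near those at 8 weeks, and Ddx17 libraries at 4 weeks lie near those at 1 week.

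Over the same weeks in sham mice the test called 2 circular RNAs (0.116%), both higher at 8 weeks, and 129 were at an unadjusted p under 0.05 (7.51%). The ring of Ash1l, a histone methyltransferase (chromosome 3, 89001773 to 89007877, mm10), had 14.9, 3.3, 6.74 and 2.12 normalized reads in sham libraries at 8 weeks and was at 0 in all 4 at 1 week (limma, log2 fold change 3.53 ± 0.78 (SE), adjusted p = 0.0117). Its 8-week sham mean was 7.28 times the floor of 3 reads over the 1-week sham group. That of Strn3, a striatin scaffold of a protein phosphatase complex (chromosome 12, 51647994 to 51661713, mm10), had 14.9, 7.7, 10.6 and 10.6 in sham at 8 weeks and 2.51, 0, 1.5 and 3.1 in sham at 1 week (limma, log2 fold change 2.62 ± 0.60 (SE), adjusted p = 0.0144). In TAC the Ash1l ring had 1.2, 4.09 and 4.29 at 8 weeks and 1.54, 0.959, 5.99 and 2.92 at 1 week, and the Strn3 ring 7.18, 13.3 and 4.29 and 3.08, 2.88, 2.99 and 5.84. The sham calls rested on single libraries: none was made without sham replicate 1 or 3 at 8 weeks, or on the sham libraries alone, and 4 were made without sham replicate 3 at 1 week.

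The change over time was also compared directly between TAC and sham. The interaction test called 0% of circular RNAs, with 148 at an unadjusted p under 0.05 (8.62%) and a smallest adjusted p of 0.0557, for Lncpint and S100pbp. For Lncpint the log2 fold change of 8 weeks over 1 week was 3.08 in TAC and -1.40 in sham, where the junction had 1.06, 2.2, 0 and 1.06 normalized reads at 8 weeks and 3.77, 2.49, 3.01 and 3.1 at 1 week. For S100pbp it was -2.45 in TAC and 2.35 in sham. Prr14l had -1.57 and 1.80, Myocd 1.98 and -1.42, and Ryr2 2.34 and -1.02, in the same order, with adjusted p for the difference of 0.144 to 0.15. The count depended on single libraries: 8 were called without sham replicate 3 at 1 week, 6 without TAC replicate 1 at 1 week, 2 without TAC replicate 2 at 1 week, and 1 each without sham replicate 4 at 1 week or sham replicate 3 at 8 weeks. Over the 272 circular RNAs with a mean of at least 5 reads, the change in TAC and the change in sham had the same sign in 117, and Pearson's r across them was -0.16 (Spearman's rho -0.17), a description across rings that share libraries.

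**Figure D5:**
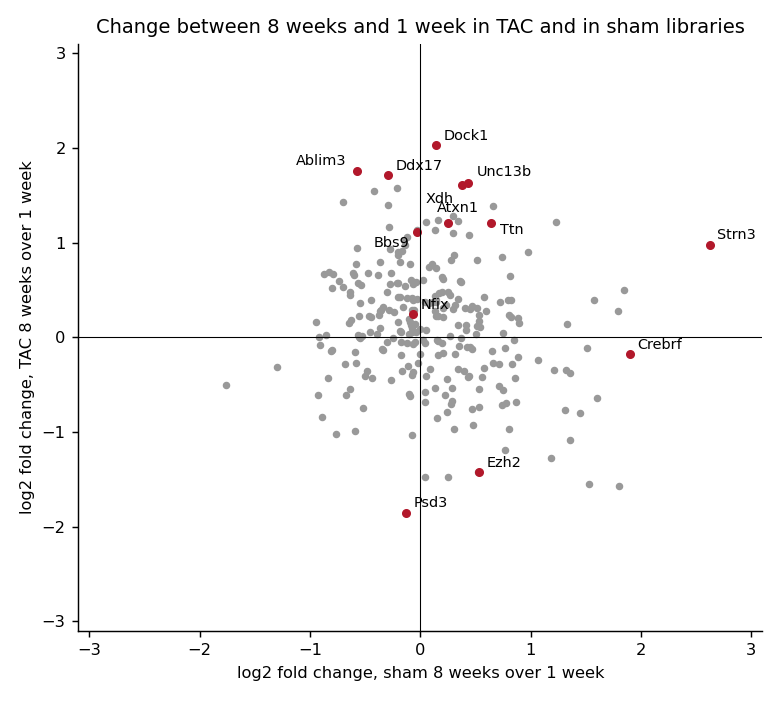
Log2 fold change of 8 weeks over 1 week in TAC (vertical axis) against that in sham (horizontal axis) for the 272 circular RNAs with a mean of at least 5 reads, with the named ones in red. Dock1 is the highest and Psd3 the lowest point in TAC, at 0.14 and -0.13 in sham; Ablim3 is at -0.57 and Ezh2 at 0.53 in sham, and Strn3 lies farthest to the right.

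The sham levels were also set beside the TAC level at each time. For 18 of the 24 rings the mean log2 level of the 8 sham libraries was closer to that of TAC at 8 weeks than at 1 week. Over all 1717 this held for 890 (51.8%), so neither time stood clearly nearer to sham. The 24 were chosen by the TAC values, so their count is a description. The Ezh2 ring had 19.2 ± 9.41 normalized reads in sham at 8 weeks and 12.5 ± 5.12 in sham at 1 week (SD, n = 4 each), both below the TAC mean at 1 week. Bbs9 had 26.7 ± 5.5 in sham at 8 weeks and 28.2 ± 11.5 in sham at 1 week, both above the TAC mean at 1 week. Over the 272 rings, log2 levels correlated between libraries with a mean r of 0.55 within TAC at 8 weeks, 0.52 within TAC at 1 week and 0.49 between these groups. TAC and sham libraries correlated with a mean r of 0.54 at 8 weeks and 0.36 at 1 week. The sham group at 1 week was the least alike within itself, at 0.41.

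The rings were also grouped by the part of the transcript they hold, as a description. Rings of coding exons alone had 735 of 1363 positive values and a median log2 fold change of 0.08, with 68 higher and 33 lower at an unadjusted p under 0.05 (4.99% and 2.42%, near the 4.54% and 2.97% over all 1717). Rings that hold both coding and untranslated sequence had 107 of 269 positive and a median of -0.18, with 4 higher (1.49%) and 14 lower (5.2%). Their summed normalized reads were 1044, 962 and 965 at 8 weeks and 1023, 1093, 1101 and 1259 at 1 week, which overlapped. This class includes a ring of Ezh2 and one of S100pbp that are among the 24 rings chosen by p. The 18 rings of untranslated exons alone had 10 positive and a median of 0.46, with 3 higher and 0 lower. Their sums of 75.4 to 100.1 at 8 weeks and 50.6 to 70.9 at 1 week did not overlap. They include Atxn1 exons 2 to 3, one of the 24 rings chosen by p. That ring averaged 20.7 ± 3.67 at 8 weeks and 10.6 ± 7.6 at 1 week (SD, n = 3 and 4), so it holds a large part of the difference. The 105 rings of a single exon had 40 positive and a median of -0.24.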

How the data were processed

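Junction reads of 24 cardiac fibroblast libraries were analysed, grouped by operation and time per the labels. Per the submitters' processing notes, FastQC, Trimmomatic, STAR and build mm10 were used; neither the caller's settings nor the normalization is given in the sources used here. The authors deposited a scaled signal of junction reads: each value minus the authors' offset of 0.01 was a whole number of reads times a step fixed for its library, within 0.001 of a read for 100% of values. One junction read counted as 1 observation, so sampling error is large at 3595 to 9146 reads per library. All 37 pairs of libraries within groups differed beyond counting noise (largest chi-square p 0.0109).

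The main test was limma (version 3.58.1, trended variance; R 4.3.3) on log2(deposited value without its offset + 0.5), over all 24 libraries and 6 groups, with Benjamini-Hochberg adjustment over 1717 circular RNAs and calls at 0.05. It was tested on simulated data. Fold changes of scarce rings are understated on this scale. Named circular RNAs are the 24 with the smallest unadjusted p, 5 for the interaction, 3 for sham, the 8 most abundant, and in each of the 15 lists the most abundant and the 2 with the smallest p. The members and lists were chosen with earlier results of these data known. Junctions were annotated with GENCODE vM21: 1657 had both ends at exon ends of one transcript, 45 had 1 and 15 none; 24 had more than 1 candidate host. A group at 0 was given a floor of 3 reads over the group. The replicate numbers of the titles gave no sign of pairing the libraries. Alternatives were other scalings, pseudocounts, a filter, limma-voom, fewer libraries and a replicate block. Some results of named rings are not reported here.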

Additional observations from a re-analysis of the deposited data

Results flagged for a closer look

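Single libraries stood apart from the rest of their group in 12 of 132 groups examined, by the ratio of the gap to the group's range; for values with a normal spread chance marks about 1 in 20 groups. That rate does not carry over to scarce rings: in 5 of the 12 a single library had a read and the rest of its group were at 0, where the ratio is 1 by construction. Among rings, TAC libraries at 1 week gave 8. Lncpint had 0.959 normalized reads in replicate 2 and 0 in the others, Med13l exons 3 to 4 likewise 0.959 in replicate 2, Tacc2 0.998 and Mertk exons 10 to 18 2.00 in replicate 3. In replicate 4, Strn3 had 5.84, Efnb2 12.6 and Kdm4b 4.86, each above the other 3. In replicate 1, Wwc2 had 0, below the other 3. In sham at 1 week, S100pbp had 1.03 in replicate 4 and 0 in the others. Of summed lists, Wnt and Hippo hosts reached 83.7 in TAC replicate 4 at 1 week, endothelial hosts 13.8 in sham replicate 1 at 1 week, and ubiquitin hosts 195.4 in sham replicate 4 at 1 week.

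For 6 of the 1717 circular RNAs the libraries of the 2 times did not overlap in TAC or in sham, and the directions were opposite. Over all 1717, 5.59% were higher and 3.09% lower without overlap in TAC, whatever their sham values. Whether 6 is more than chance would give was not tested. Among the named rings these were Lncpint, with a difference of the log2 fold changes, TAC minus sham, of 4.48 (limma interaction, adjusted p = 0.0557), and Mipep, with 3.63 (adjusted p = 0.165). Neither passed the threshold.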

How the results depend on the processing

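Over 69 results with a fit, 1042 alternative fits were made; 1000 kept the direction and the side of the threshold, 18 newly passed it, 9 no longer passed it and 15 turned direction. For the 24 rings described first, 345 of 346 fits kept both and the other was the Ezh2 ring by limma-voom. The count of calls in TAC was 1 by limma-voom and 0 with any 1 library left out. That in sham was 1 by limma-voom, 0 on the sham libraries alone and 0 to 4 with 1 library left out (4 without sham 1 week replicate 3, 1 without sham 8 weeks replicate 4, 0 without replicate 1 or 3 of that group). That of the interaction was 2 with a pseudocount of 1, 3 by limma-voom and 0 to 8 with 1 library left out (8 without sham 1 week replicate 3, 6 and 2 without TAC 1 week replicates 1 and 2, 1 without sham 1 week replicate 4 or sham 8 weeks replicate 3). The difference in junction reads between TAC at 8 weeks and at 1 week was -46.7 (without TAC 1 week replicate 1) to 997 (without TAC 8 weeks replicate 1) with 1 library left out, and -25.8 without TAC 8 weeks replicate 3, and the difference in detected circular RNAs was 34.0 on reads that were not reduced and -15.7 to -0.41 with 1 library left out. The other turned directions were all of small log2 fold changes in TAC. Rnf169 was at -0.057 by limma-voom; with 1 library left out its range was -0.16 to 0.18 (below 0 without TAC 1 week replicate 1 or TAC 8 weeks replicate 1 or 3), that of Abcc9 -0.40 to 0.23 (above 0 without replicate 1 of either time), that of Ash1l exons 4 to 5 -0.093 to 0.72 (below 0 without TAC 1 week replicate 2 or TAC 8 weeks replicate 3), that of Crebrf -0.58 to 0.060 (above 0 without TAC 1 week replicate 3 or 4 or TAC 8 weeks replicate 2), that of Lrch3 -0.73 to 0.056 (above 0 without TAC 1 week replicate 4 or TAC 8 weeks replicate 3), that of Pecam1 exons 8 to 13 -0.19 to 0.074 (above 0 without TAC 8 weeks replicate 1) and that of Med13l exon 2 -0.10 to 0.25 (below 0 without TAC 8 weeks replicate 3). The cause was not tested.

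Deviations of libraries with the same number in their titles correlated at -0.22, 0.05 and -0.16 in TAC and at -0.29 to 0.07 in sham. These values gave no sign of a pairing by those numbers, but so few pairs cannot exclude one. With a replicate block the calls were 0 in TAC, 2 in sham and 0 for the interaction, as without it. Count-based tests planned as alternatives were not run, since the deposited values are scaled and carry an offset; limma-voom was run on the recovered reads. Settings for the summed lists were chosen after seeing the data. Limits are the low depth, the 3 and 4 libraries, the rings' few reads and the absence of a host transcript level.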
